A study of Mus musculus with 9 samples.

Results

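The genes described here encode the subunits of potassium channels and of the hyperpolarization-activated (HCN) channels of mouse dorsal root ganglia (DRG). They were taken from the deposited count table by symbol, as every gene named Kcn with letters and a number, or Hcn with a number, which gave 96 of the 55247 genes. Of these, 69 had at least 100 counts in at least 1 library and were tested among the 13200 genes that passed the same limit. RNA of DRGs from embryos at E18.5 was sequenced in 9 libraries, 3 for each of 3 genotypes. WT embryos carried neither allele, Isl1Cre/+ embryos carried Cre recombinase in 1 of the copies of Isl1, and Isl1Cre/+::Meis2LoxP/LoxP embryos (mutant) carried the same Cre allele together with a Meis2 gene whose homeodomain exon was flanked by LoxP sites on both chromosomes. Isl1 is a transcription factor of postmitotic sensory neurons, so this driver acts after these neurons are born, and the Cre allele is shared by the mutant and the Isl1Cre/+ control. No source used here says whether each library came from 1 embryo or from several, or from separate litters, and p-values therefore measure the spread between libraries. In bulk RNA, fewer cells of a type and less RNA per cell cannot be told apart.

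Potassium channels set the resting potential, end the action potential and limit how often a neuron fires, while HCN channels pass an inward current when the membrane is hyperpolarized and drive it back toward threshold. Voltage-gated (Kv) and HCN channels are tetramers with a single pore loop in each subunit, and tandem-pore (K2P) subunits carry a pair of such loops and form the background conductance. Touch and pain neurons of the DRG are known to use different sets of these subunits, such as Kcns1 and Kcna1 in large myelinated touch neurons and Kcnk18 and Hcn2 in small pain neurons. Meis2, the gene removed in the mutant, is a homeodomain transcription factor expressed by touch neurons.

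What the pore-forming members share is the selectivity filter, the stretch of the pore loop that lets potassium pass. The coding sequences below are shown because they carry this stretch in the most abundant member of several families and in the genes of touch and pain neurons on which the comparisons turn. Each is read 5′ to 3′ on the coding strand from GENCODE M21 on GRCm38 (mm10), with the codons of the filter signature in capitals and the flanking codons in lower case.

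Kcna2: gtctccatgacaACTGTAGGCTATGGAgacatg (chr3:107105212-107105244, plus strand)

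Kcna6: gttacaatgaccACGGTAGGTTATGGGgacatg (chr6:126738641-126738673, minus strand)

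Kcnh2: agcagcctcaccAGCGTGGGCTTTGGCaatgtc (chr5:24325549-24325581, minus strand)

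Kcnt1: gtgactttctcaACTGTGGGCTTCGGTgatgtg (chr2:25894355-25894387, plus strand)

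Hcn3: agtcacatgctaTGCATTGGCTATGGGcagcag (chr3:89151000-89151032, minus strand)

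Kcnk18, second loop: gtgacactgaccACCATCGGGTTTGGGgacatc (chr19:59235415-59235447, plus strand)

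Kcnk1, first loop: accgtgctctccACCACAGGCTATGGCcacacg (spliced from exons 1 and 2, first base chr8:125995796 and last base chr8:126025025, plus strand)

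Kcnk1, second loop: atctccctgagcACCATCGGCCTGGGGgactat (chr8:126025317-126025349, plus strand)

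The signature was searched as codons for threonine, serine or cysteine, then for valine, isoleucine, leucine, threonine or phenylalanine, then for glycine, then for tyrosine or phenylalanine, and then for glycine, in the longest complete coding sequence of each gene. All 81 pore-forming members held it and none of the 15 auxiliary members did. Among all 21798 protein-coding genes searched in the same way, 224 (1.03%) held it. Of the 14 K2P members, 11 held it in both loops, and the other 3, Kcnk1, Kcnk6 and Kcnk7, had a codon for leucine in place of tyrosine or phenylalanine in the second loop, as seen for Kcnk1 above. The HCN members differ from the Kv members at the first codon, which is for cysteine in HCN and for threonine or serine in the Kv genes shown. In Hcn4 a further match lay at codon 905, outside the pore loop known for this protein.

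The library labels held for the targeted genes, and the tissue carried its own markers. Meis2 had 2919, 2902 and 2746 counts for WT, 2806, 2857 and 2537 for Isl1Cre/+ and 1084, 1073 and 1004 for the mutant, a log2 fold change of -1.33 ± 0.0844 (SE) against WT and of -1.23 ± 0.0651 against Isl1Cre/+. Isl1 was lower in both genotypes with the Cre allele, with log2 fold changes of -0.48 for the mutant and -0.48 for Isl1Cre/+, each against WT. All 10 sensory neuron markers passed the filter, while none of the 7 spinal neuron or 3 motor neuron markers did, with summed levels of at most 6.14 and 0.637 cpm (counts scaled to the size of each library). The spinal neuron sums were 4.66 to 6.14 cpm for WT, 0.715 to 1.47 for Isl1Cre/+ and 1.88 to 4.15 for the mutant. The libraries held 23854607 to 29103444 counts, of which 0.303% to 0.353% fell on the 96 channel genes. WT library 1 and mutant library 2 stood apart from the others, with median rank correlations to the other libraries of 0.981 and 0.979 against 0.991 to 0.995. Mutant library 2 had the lowest summed sensory neuron markers (5705 cpm against 6205 to 8261 in the others), the highest skeletal muscle markers (2307 cpm against 68.1 to 967.6) and the highest red cell markers (3960 cpm against 342.5 to 2208), and WT library 1 had the highest sensory neuron markers (8261 cpm).

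Channel levels spanned a wide range, and a small number of genes carried much of the total. Levels of different genes were compared as cpm per kilobase of exon, after scaling of each library by TMM. The highest was Kcnab2, the auxiliary beta subunit of Kv1 channels, at 60.5 ± 4.33 cpm per kb (mean ± SD, n = 9 libraries). Kcna6, a Kv1 pore subunit, followed at 47.15 ± 4.34. The ranges of these genes over the 9 libraries touched each other and lay above those of every other member. After them came Kcnd1 (19.7 ± 1.17), a fast-inactivating A-type channel, Kcnc4 (17.95 ± 1.2), a fast-inactivating Kv3 channel, and Kcnt1 (17.5 ± 1.83), a sodium-activated channel. Kcnh2, which encodes the ERG channel, stood at 16.7 cpm per kb with an SD of 2.0. Kcnd1 and Kcnc4 differed by more than the SD of either, while from Kcnc4 through Kcnt1 to Kcnh2 each gene differed from the next by less than its SD. The 10 highest genes held 45.2% of the summed level of all 96 members, 15 members were at 10 cpm per kb or more, and 34 at 5 or more.

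**Figure D1:**
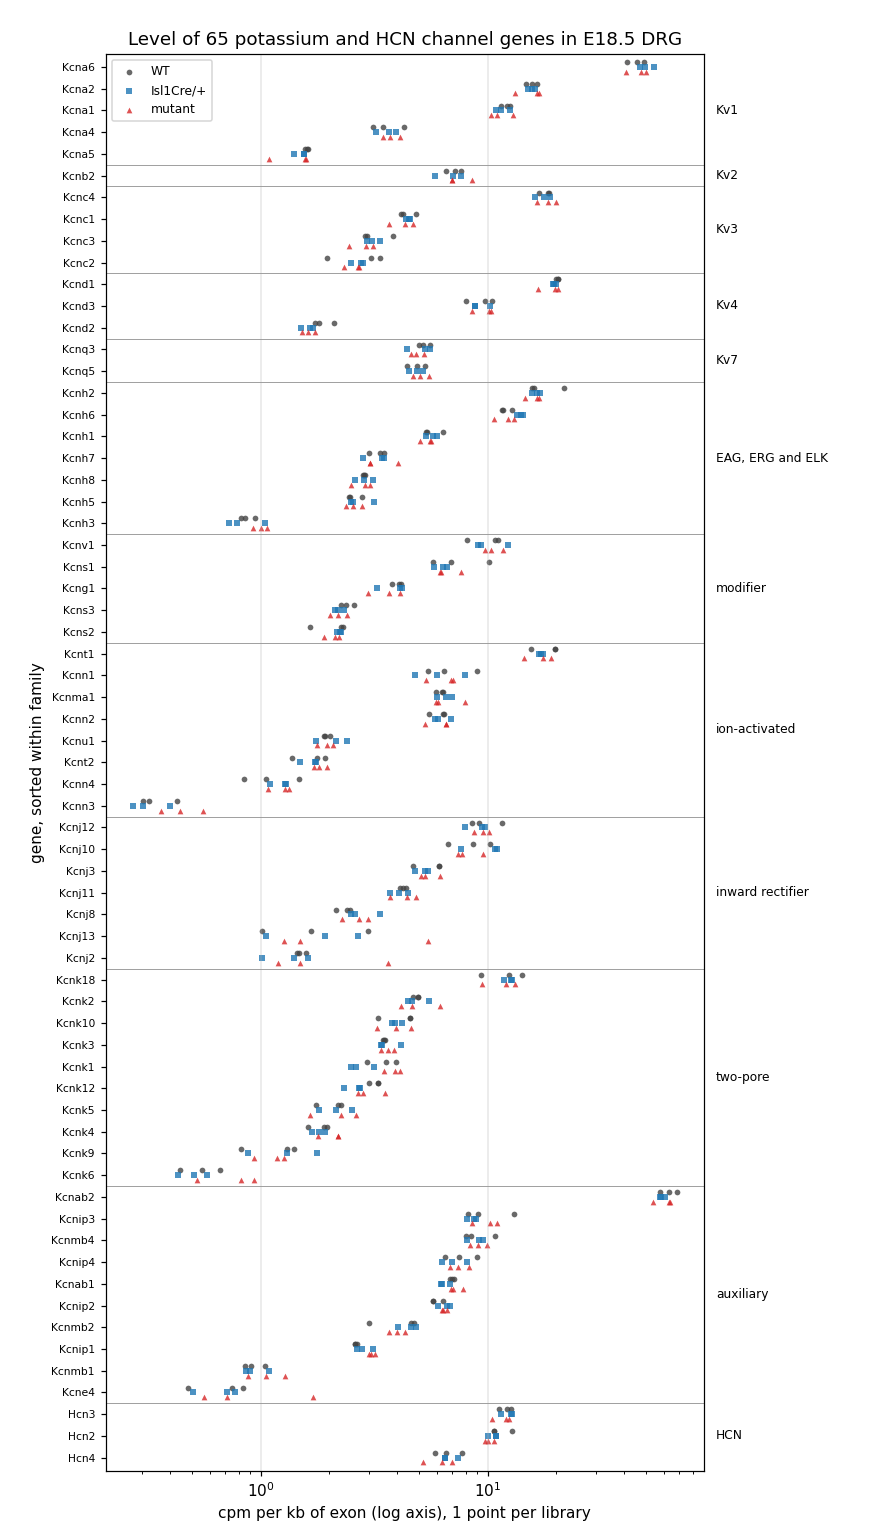
Level of 65 tested channel genes in each of the 9 libraries, in cpm per kb of exon on a log axis, grouped by channel family and sorted by mean within a family; circles are WT, squares Isl1Cre/+ and triangles mutant libraries. Kcnab2 and Kcna6 lie above all other genes, and the 3 genotypes overlap in nearly every row, while Kcnj13, Kcnj2 and Kcne4 each have a single mutant library far to the right.

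The families differed in how many of their members were present. All 4 HCN, all 8 ion-activated (Kcnma, Kcnn, Kcnt, Kcnu), all 4 Kv3, all 3 Kv4 and both Kv2 genes passed the count limit. In contrast, 7 of 15 inward rectifiers, 5 of 10 modifier subunits, 5 of 8 Kv1 genes, 10 of 14 K2P genes and 10 of 15 auxiliary subunits did, as did 4 of 5 Kv7 genes and 7 of 8 genes of the EAG, ERG and ELK group. By summed level per kb, the auxiliary subunits took the largest share in every library (20.2% to 22.5% of the members' total), followed by Kv1 (13.6% to 16.9%). Of the 27 members below the limit, 10 had fewer than 10 counts in every library and 17 reached 10 to 91. They included most of the subunits of the G protein-gated inward rectifiers, with highest counts of 12 for Kcnj6, 19 for Kcnj9 and 7 for Kcnj5, while their partner Kcnj3 was present at 5.45 cpm per kb, a value with the limit that 31.1% of its exon bases are shared with Gm26794 on the opposite strand. Kcnq1, best known from the heart, reached 34 counts, and its cardiac partner Kcne1 reached 5. No member was at 0 in every library. Just outside the limit were Kcne3 with at most 91 and Kcnh4 with at most 80 counts, and just inside were Kcnk6 with at most 102 and Kcne4 with at most 119, both of which passed only through mutant library 2.

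Some channel genes that lie near each other in the genome stood at different levels and others at close ones. The Kv1 genes Kcna1, Kcna5 and Kcna6 lie within a single stretch of chromosome 6, 61945 bases apart for Kcna1 and Kcna6, and stood at 11.7, 1.505 and 47.15 cpm per kb. On chromosome 3, Kcna2 lies 63076 bases from Kcna3 and 68051 from Kcna10, and these genes stood at 15.6, 0.598 and 0.0130 cpm per kb. Kcnj10, the inward rectifier of satellite glia, and Kcnj9 are separated by 11892 bases on chromosome 1 and stood at 8.85 and 0.0840 cpm per kb. In contrast, Kcnc1 and Kcnj11, which are 295733 bases apart on chromosome 7, stood at 4.38 and 4.22 cpm per kb, and the low genes Kcne1 and Kcne2, 47853 bases apart on chromosome 16, at 0.0218 and 0.0251. The value of Kcna6 carries a limit, since 39.6% of its exon bases are shared with an antisense gene on the opposite strand, Gm26673, which itself had 4 to 20 counts, and the strand setting of the counting is not stated.

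The comparison of the mutant with WT asks which channel genes differ in DRGs with both the Meis2 deletion and the Cre allele. It cannot tell the deletion and the allele apart. Of the 69 tested channel genes, 0 met the criterion used by the study (an unadjusted p under 0.05 together with a difference of 1.2-fold or more), where 0.318% of all tested genes did. By an adjusted p under 0.05 the count was also 0, against 0.00758% of all tested genes, with edgeR's quasi-likelihood test and Benjamini-Hochberg adjustment. Without the fold requirement 1 channel gene, Kcnip1, had an unadjusted p under 0.05 (1.45%, against 0.371% of all tested genes). DESeq2 and limma voom each gave 1 as well. The count was 0 with library size only, with no filter on low counts or with a replicate block. It ran from 0 to 2 when a library was left out, and was 6 without WT library 1 and mutant library 2. The shares of all tested genes at this limit are not given for these fits. The median log2 fold change of the channel genes was -0.002 and that of all tested genes -0.009. None of the 69 tested channel genes had its 3 mutant libraries all above or all below the 6 control libraries, and 112 of the 13200 tested genes (0.848%) did. At that share, 0 of 69 is no result about channel genes. For 60 of the 69 genes the 95% interval of the difference lay within a 1.5-fold change in either direction, and for 65 within a 2-fold change.

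Against Isl1Cre/+, which shares the Cre allele with the mutant, 1 of the 69 channel genes was called, where 1.67% of all tested genes were, and 0 had an adjusted p under 0.05, against 0.00758% of all tested genes. The called gene was Kcnk1, and Kcnh6 also had an unadjusted p under 0.05 but changed by less than 1.2-fold. The median log2 fold change was 0.010 for the channel genes and 0.000293 for all tested genes. In 59 genes the 95% interval lay within a 1.5-fold change. The comparison of Isl1Cre/+ with WT, which shows what the Cre allele goes with on its own, gave 0 called channel genes where 1.4% of all tested genes were called. The count by adjusted p was 0, as it was for all tested genes (0%), and 1 channel gene, Kcnh6, had an unadjusted p under 0.05. At an unadjusted p under 0.05, edgeR gave 2 against Isl1Cre/+ (2.9%, against 2.73% of all tested genes). It gave 1 for Isl1Cre/+ against WT (1.45%, against 1.79%). DESeq2 and limma voom gave the same counts. When a library was left out these counts ran from 2 to 5 and from 0 to 4, and with no filter on low counts they were 7 and 1. The comparisons share libraries, so none of them is independent of the other two.

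**Figure D2:**
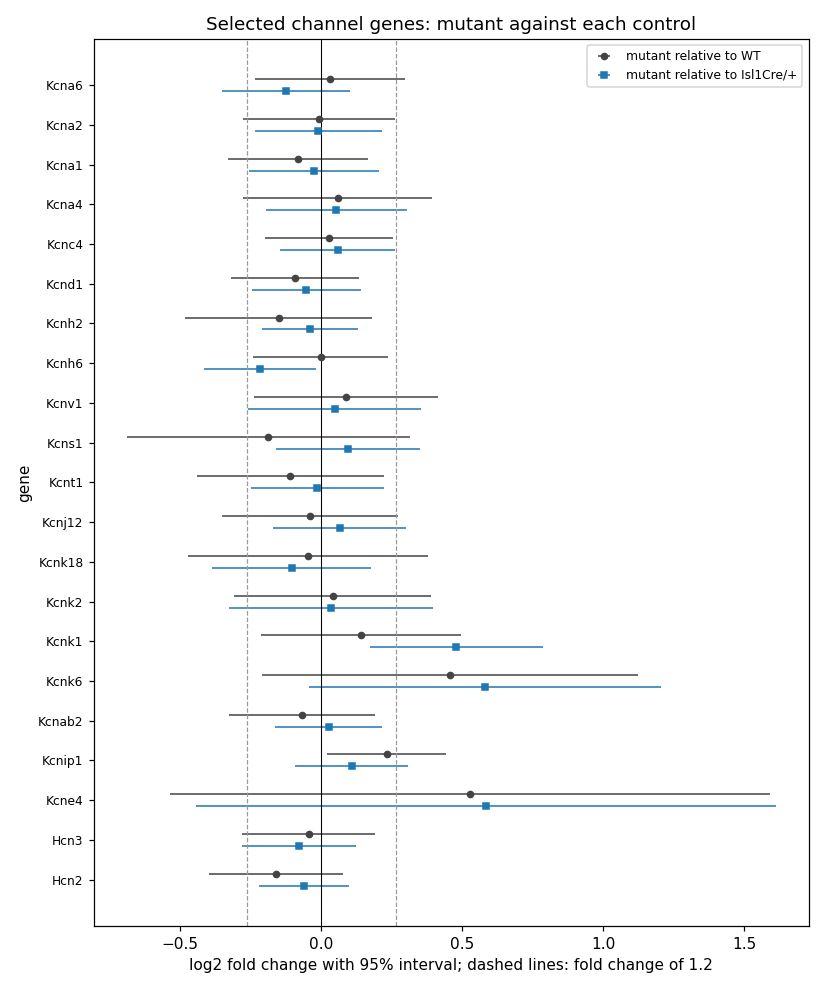
Log2 fold change of the mutant relative to WT (circles) and relative to Isl1Cre/+ (squares) for tested channel genes that the naming rule selected, with Kcnip1 and Kcnh6; bars are 95% intervals and dashed lines mark a fold change of 1.2. Nearly all intervals span 0, and only Kcnk1 relative to Isl1Cre/+ has a point beyond the dashed line with an interval clear of 0.

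Kcnk1, which encodes the tandem-pore background channel TWIK1, was the called gene. It lies at chr8:125995170-126030685 on the plus strand. Its counts were 235, 186 and 230 for WT, 164, 165 and 200 for Isl1Cre/+ and 245, 206 and 214 for the mutant. After scaling these were 8.85, 6.58 and 7.99 cpm for WT, 5.58, 5.90 and 7.06 for Isl1Cre/+ and 9.21, 7.83 and 8.78 for the mutant. All mutant libraries lay above all Isl1Cre/+ libraries, and the WT libraries overlapped with both. The mutant was 1.39-fold higher than Isl1Cre/+ (log2 fold change 0.48 ± 0.131 SE, 95% interval 0.17 to 0.78, unadjusted p = 0.00744 by edgeR's quasi-likelihood test, adjusted p = 1). Relative to WT the log2 fold change was 0.14 (95% interval -0.21 to 0.50), 0.03 without WT library 2, 0.24 without WT library 1, 0.23 without mutant library 2 and 0.31 without both of the latter (unadjusted p = 0.0745 by edgeR), and Isl1Cre/+ relative to WT gave -0.32 (-0.69 to 0.04). Muscle and red cell markers differed between the same genotypes, and the summed spinal neuron markers, all below the count limit, were also lowest in Isl1Cre/+. The summed skeletal muscle markers were at 68.1 to 177.2 cpm in Isl1Cre/+, 127.7 to 967.6 in WT and 150.6 to 2307 in the mutant, and all 8 were called higher in the mutant than in Isl1Cre/+ (median log2 fold change 3.01) and lower in Isl1Cre/+ than in WT (-2.10). The 5 red cell markers were called in the same directions (2.08 and -1.34). The part of these cells in the Kcnk1 value was not tested. Without mutant library 2, which had the highest muscle and red cell markers, the Kcnk1 difference from Isl1Cre/+ was 0.55.

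Below the count limit, Kcnk13, a K2P subunit also known as THIK1, was the only gene of the 96 whose mutant libraries all lay above the 6 controls (1.04%, against 0.906% of all genes with a count). It had 21, 30 and 24 counts for WT, 24, 22 and 23 for Isl1Cre/+ and 37, 39 and 26 for the mutant. In cpm the lowest mutant library (1.067) stood barely above the highest control (1.062). With no filter on low counts it was called relative to Isl1Cre/+, with a log2 fold change of 0.69 (unadjusted p = 0.0155, adjusted p = 0.908 by edgeR), in a fit in which 3.03% of all genes were called.

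Kcnh6, a subunit of the ERG family, showed the opposite order at a higher level. Its libraries had 1106, 1282 and 1177 counts for WT, 1402, 1392 and 1446 for Isl1Cre/+ and 1233, 994 and 1062 for the mutant. Every Isl1Cre/+ library was above every library of the other genotypes, while WT and mutant overlapped. The log2 fold change was 0.23 ± 0.0798 for Isl1Cre/+ relative to WT (unadjusted p = 0.0241) and -0.22 ± 0.0847 for the mutant relative to Isl1Cre/+ (unadjusted p = 0.0354), both short of 1.2-fold, and -0.002 for the mutant relative to WT. Without mutant library 2 the difference from Isl1Cre/+ was -0.13 (unadjusted p = 0.104 by edgeR), while Kcnh6 was called without mutant library 1 (-0.29, unadjusted p = 0.014) and, for Isl1Cre/+ relative to WT, without WT library 2 (0.28, unadjusted p = 0.0172). Kcnip1, a calcium-binding auxiliary subunit of Kv4 channels, was at 16.2, 16.6 and 16.1 cpm for WT, 17.4, 19.4 and 16.5 for Isl1Cre/+ and 18.6, 19.0 and 19.7 for the mutant. Its mutant libraries lay above its WT libraries, with 1 Isl1Cre/+ library among them, and the log2 fold change relative to WT was 0.23 ± 0.0907 (unadjusted p = 0.0364, adjusted p = 1). Without mutant library 2 the Kcnip1 value was 0.26 (unadjusted p = 0.0524 by edgeR). Kcnh6 and Kcnip1 were named after their values were seen, as were the genes named below for single libraries.

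**Figure D3:**
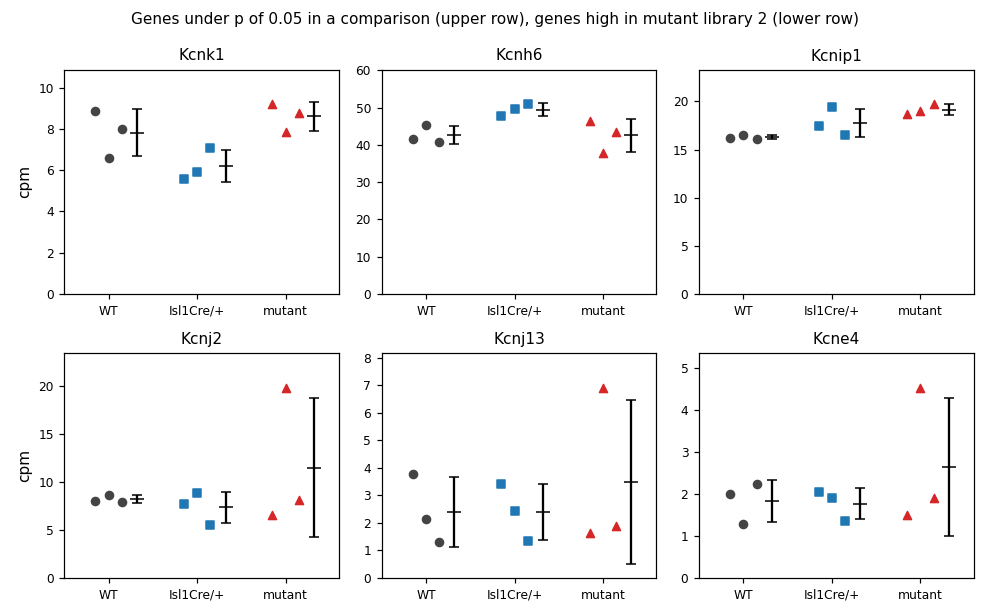
Level in cpm of 6 channel genes in each library, with the mean and SD of each genotype at the right of its points; the upper row holds the genes with an unadjusted p under 0.05 in a comparison and the lower row 3 genes that were high in mutant library 2. Kcnk1 is lowest and Kcnh6 highest in Isl1Cre/+, and the mutant means of Kcnj2, Kcnj13 and Kcne4 are raised by a single library.

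Among the channel genes known from touch neurons, 0 of 5 were called in any comparison, where 0.318% of all tested genes were called relative to WT, 1.67% relative to Isl1Cre/+ and 1.4% between the controls. At these shares, 0 of 5 is no result about touch genes. Kcns1, a subunit that forms no channel alone and modifies Kv2 channels, had 27.6, 15.6 and 18.7 cpm for WT, 17.3, 15.7 and 17.9 for Isl1Cre/+ and 20.7, 16.9 and 16.7 for the mutant. WT library 1 was the highest and the rest overlapped. The log2 fold change of the mutant relative to WT was -0.19 (95% interval -0.69 to 0.31). Without WT library 1 and mutant library 2, an alternative added after the data were seen, it was 0.13, in the other direction. Isl1Cre/+ relative to WT gave -0.27 for Kcns1 (unadjusted p = 0.205 by edgeR), -0.43 without WT library 2 (unadjusted p = 0.0423, called) and -0.03 without WT library 1 (unadjusted p = 0.808).

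Kcna1 and Kcna2, the Kv1 subunits that sit beside the nodes of myelinated axons, were more even. Kcna2 had 175, 186 and 197 cpm for WT, 179, 192 and 188 for Isl1Cre/+ and 197, 158 and 200 for the mutant. Kcna1 had 1551, 1541 and 1734 counts for WT, 1602, 1453 and 1700 for Isl1Cre/+ and 1642, 1296 and 1277 for the mutant. The genotypes overlapped for both genes. The log2 fold change of the mutant relative to WT was -0.008 for Kcna2 (-0.28 to 0.26) and -0.08 for Kcna1 (-0.33 to 0.17), and without mutant library 2 it was 0.11 and 0.005.

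The channel genes known from pain neurons also gave 0 calls of 5 in any comparison, which at the same shares of all tested genes (0.318%, 1.67% and 1.4%) is no result about pain genes. Hcn2, the cyclic AMP-sensitive HCN subunit of small neurons, was at 40.8, 34.1 and 34.0 cpm for WT, 34.7, 34.9 and 32.1 for Isl1Cre/+ and 32.2, 31.1 and 34.0 for the mutant. WT library 1 was the highest, and the other libraries lay close together. The mutant was at -0.16 relative to WT (95% interval -0.40 to 0.08, unadjusted p = 0.154 by edgeR) and at -0.06 relative to Isl1Cre/+ (-0.22 to 0.10). Relative to WT the value was -0.07 without WT library 1 and -0.03 without both libraries. Kcnk18, the K2P channel TRESK of small neurons, was at 32.3, 49.3 and 43.1 cpm for WT, 41.0, 44.5 and 44.2 for Isl1Cre/+ and 41.9, 32.8 and 45.9 for the mutant. The libraries that stand apart were its lowest libraries, and the log2 fold change relative to WT was -0.05 (-0.47 to 0.38), -0.20 without WT library 1 and 0.10 without mutant library 2.

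Kcnk2, the mechanically gated K2P channel TREK1, ranged from 20.5 to 30.5 cpm over the mutant libraries and from 22.2 to 27.2 over the 6 controls, with a log2 fold change of 0.04 relative to WT (-0.31 to 0.39) that turned to -0.12 without mutant library 2, its highest library. Kcna4, which gives a slowly recovering A-type current, ranged from 15.1 to 20.6 cpm over the controls and from 16.7 to 19.9 over the mutant libraries. Kcnd1 was the steadiest of the pain list in the controls, at 103 to 108 cpm, and had 108, 88.2 and 105 cpm in the mutant, where library 2 was below every control. Its log2 fold change relative to WT was -0.09 (-0.32 to 0.13), and 0.002 without the libraries that stand apart.

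**Figure D4:**
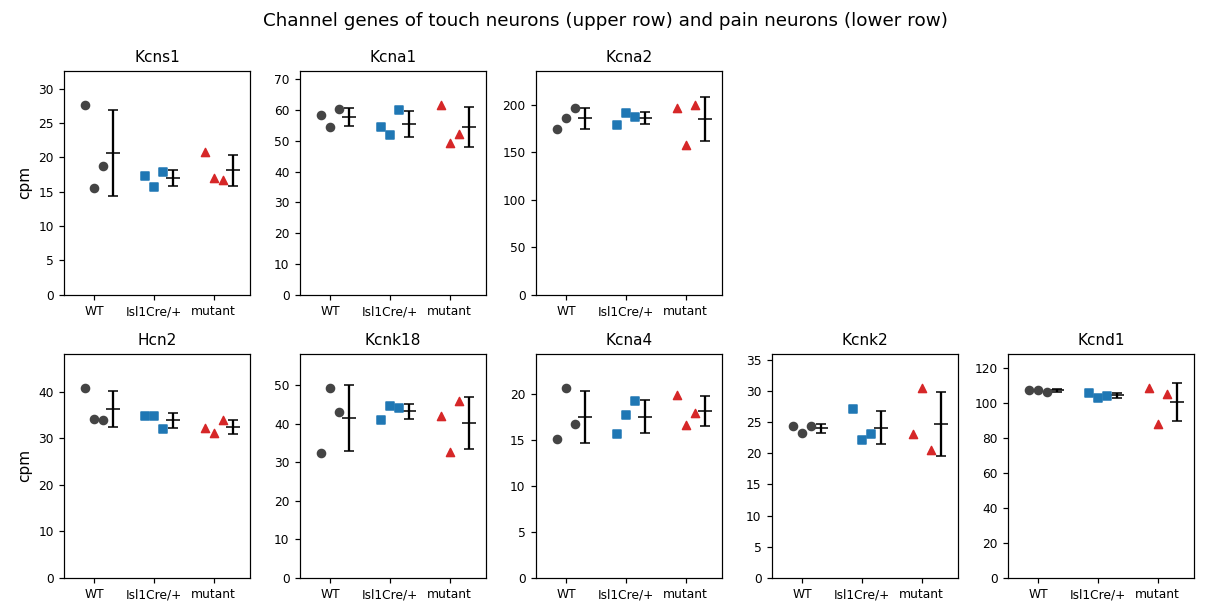
Level in cpm of the channel genes known from touch neurons (upper row) and pain neurons (lower row) in each library, with the mean and SD of each genotype at the right of its points. The mutant libraries overlap those of each control for all 8 genes shown, and the first WT library is the highest for Kcns1 and Hcn2 and the lowest for Kcnk18.

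All 4 HCN genes were tested. Per kb of exon the order was Hcn3 (12.01 ± 0.81), Hcn2 (10.7 ± 0.872) and Hcn4 (6.56) for the genes described here, where Hcn3 and Hcn2 differed by more than the SD of either. The log2 fold changes of the mutant relative to WT were -0.16 for Hcn2, -0.13 for Hcn4 and -0.05 for Hcn3, none with an interval clear of 0, and without mutant library 2 those of Hcn4 and Hcn3 were 0.008 and 0.05. In Hcn3, 17.1% of the exon bases overlap Pklr on the opposite strand, which had 0 to 3 counts.

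Kcnq3, Kcnma1 and Kcnn3, chosen after their values were seen, overlapped between the mutant and each control. Kcnq3, a subunit of the M-current, was at 73.2, 76.0 and 82.4 cpm for WT, 65.0, 81.9 and 77.7 for Isl1Cre/+ and 76.9, 67.3 and 71.5 for the mutant. The genotypes overlapped, and the log2 fold change relative to WT was -0.10 (-0.31 to 0.11), and -0.04 without mutant library 2. Kcnma1, the BK channel opened by calcium and voltage, was highest in mutant library 1 (135 cpm) and between 101 and 118 cpm in the other libraries, with 0.10 relative to WT (-0.19 to 0.39), and 0.20 without mutant library 2. The SK channel gene Kcnn3 was the lowest of the ion-activated group per kb and had 119, 95 and 91 counts for WT, 123, 80 and 90 for Isl1Cre/+ and 101, 154 and 113 for the mutant. Its highest value came from mutant library 2, and its log2 fold change was 0.38 relative to WT (-0.16 to 0.92) and 0.48 relative to Isl1Cre/+ (-0.05 to 1.01). Without mutant library 2 these values were 0.22 and 0.31, and the gene was called relative to Isl1Cre/+ without mutant library 1 (0.62), without Isl1Cre/+ library 1 (0.66) and with no filter on low counts (0.46).

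Among the background and inward-rectifying channels outside the pain list, Kcnj10 of satellite glia had 961, 1315 and 1595 counts for WT, 1742, 1157 and 1655 for Isl1Cre/+ and 1063, 1103 and 1253 for the mutant. Its libraries overlapped across genotypes, with a log2 fold change of -0.05 relative to WT (-0.45 to 0.35), -0.20 without WT library 1, and of -0.26 relative to Isl1Cre/+ (-0.62 to 0.11). It was called relative to Isl1Cre/+ without Isl1Cre/+ library 2 (-0.41, unadjusted p = 0.0129 by edgeR) and with no filter on low counts (-0.27, unadjusted p = 0.0443). The Schwann and satellite glia markers summed to between 1097 and 1324 cpm. Kcnk12, a K2P subunit, had 173, 184 and 170 counts for WT, 135, 152 and 152 for Isl1Cre/+ and 149, 139 and 170 for the mutant. Every Isl1Cre/+ library was below every WT library after scaling, and the difference was -0.29 (-0.59 to 0.02, unadjusted p = 0.0632 by edgeR). Kcnk3 and Kcnk10 gave log2 fold changes of 0.06 (-0.18 to 0.30) and -0.07 (-0.47 to 0.33) for the mutant relative to WT, 0.12 and 0.07 without mutant library 2. Of the 69 genes, those whose libraries separated the mutant from WT were Kcnip1 above and Kcnd2 below (2.9%, against 2.76% of all tested genes), and those that separated it from Isl1Cre/+ were Kcnab1 and Kcnk1 above and Kcnh6 below (4.35%, against 7.65%). Isl1Cre/+ was separated from WT by Kcnh6 and Kcnj8 above and Kcna5, Kcnd1, Kcnd2 and Kcnk12 below (8.7%, against 5.66%).

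In the other families the most abundant genes differed little between genotypes. Kcna6 was at 244, 271 and 290 cpm for WT, 295, 278 and 323 for Isl1Cre/+ and 283, 242 and 297 for the mutant, with a log2 fold change of the mutant of 0.03 relative to WT (-0.24 to 0.30) and of -0.12 relative to Isl1Cre/+ (-0.35 to 0.10), -0.04 without mutant library 2. Kcnab2 gave -0.07 relative to WT (-0.33 to 0.19), Kcnt1 gave -0.11 (-0.44 to 0.22) and Kcnh2 gave -0.15 (-0.48 to 0.18). Their genotypes overlapped, and the highest Kcnh2 value was again in WT library 1. All 3 directions turned when a library that stands apart was left out, Kcnh2 to 0.02 without WT library 1, and Kcnt1 to 0.02 and Kcnab2 to 0.03 without mutant library 2, as did that of Kcna6 relative to WT, to -0.03 without WT library 1. Kcnc4, Kcnj12, an inward rectifier, and Kcnv1, a modifier of Kv2 channels, differed from WT in the mutant by 0.03, -0.04 and 0.09 on the log2 scale, and without WT library 1 Kcnj12 turned to 0.10 and Kcnv1 to -0.04. Kcnc4 ran from -0.04 without mutant library 3 to 0.12 without mutant library 2. By family, the median log2 fold change of the mutant relative to WT ran from -0.12 for the modifier subunits to 0.06 for the ion-activated channels, and relative to Isl1Cre/+ from -0.07 for Kv3 to 0.10 for Kv2.

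The mutant values of Kcnj2, Kcnj13 and Kcne4 were raised by mutant library 2. Kcnj2, the inward rectifier Kir2.1 that is abundant in muscle, had 213, 245 and 227 counts for WT, 225, 246 and 157 for Isl1Cre/+ and 173, 521 and 198 for the mutant, and in cpm library 2 was 2.71 times the mean of the other mutant libraries. Kcnj13, the inward rectifier Kir7.1, had 43, 182 and 46 counts in the mutant, a ratio of 3.95. It also varied widely within the controls, with 100, 60 and 37 counts for WT and 100, 68 and 38 for Isl1Cre/+. Kcne4, an auxiliary subunit, had 53, 36 and 64 counts for WT, 60, 53 and 38 for Isl1Cre/+ and 40, 119 and 46 for the mutant, a ratio of 2.67. None of these genes was called, and relative to WT the log2 differences were 0.49 (-0.42 to 1.40), 0.54 (-0.93 to 2.02) and 0.53 (-0.54 to 1.59). Without mutant library 2 they turned to -0.14, -0.42 and -0.09. Kcnj2 was called relative to Isl1Cre/+ without mutant library 1 (0.93, unadjusted p = 0.0388 by edgeR) and with no filter on low counts (0.62, unadjusted p = 0.0442). Kcnk6, a K2P subunit near the count limit, had 61, 52 and 79 counts for WT, 71, 59 and 51 for Isl1Cre/+ and 58, 102 and 83 for the mutant. Its log2 fold change was 0.46 relative to WT (-0.21 to 1.12) and 0.58 relative to Isl1Cre/+ (unadjusted p = 0.0647 by edgeR), 0.30 and 0.41 without mutant library 2. It was called in both comparisons without mutant library 1 (0.67 and 0.78), but it passed the count limit only through mutant library 2, the library in which it was highest, so these calls support nothing about the gene. With no filter on low counts Kcnk6 was also called relative to Isl1Cre/+ (0.56, unadjusted p = 0.0222, adjusted p = 0.908 by edgeR). In that fit 3.03% of all genes were called. Kcnj13 shares 49.1% of its exon bases with Gigyf2 on the opposite strand, which had 1806 to 2436 counts. In the same library the other channel genes were mostly low, with 24 of 69 at their lowest of the 9 libraries and a median ratio to the other mutant libraries of 0.871. This is the library with the lowest sensory neuron and the highest muscle, red cell and fibroblast markers (3376 cpm of fibroblast markers against 1830 to 3194 in the others), and the part of these cells in the channel values was not tested.

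WT library 1 differed from the other WT libraries in both directions, with 16 channel genes at their highest and 15 at their lowest of the 9 libraries. It was 2.21 times the mean of the other WT libraries for Kcnj13, 1.61 times for Kcns1, 1.56 times for Kcnn4, 1.51 times for Kcnn1, a calcium-activated SK channel, and for Kcnip3, and 1.37 times for Kcnh2. It was at 0.608 of them for Kcnk9, an acid-sensitive K2P channel, at 0.612 for Kcnc2, a fast Kv3 channel, at 0.647 for Kcnmb2 and at 0.7 for Kcnk18. Together, 44.9% of the channel genes had their highest or lowest value in WT library 1 and 44.9% in mutant library 2, against 55.1% and 34.5% of all tested genes.

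**Figure D5:**
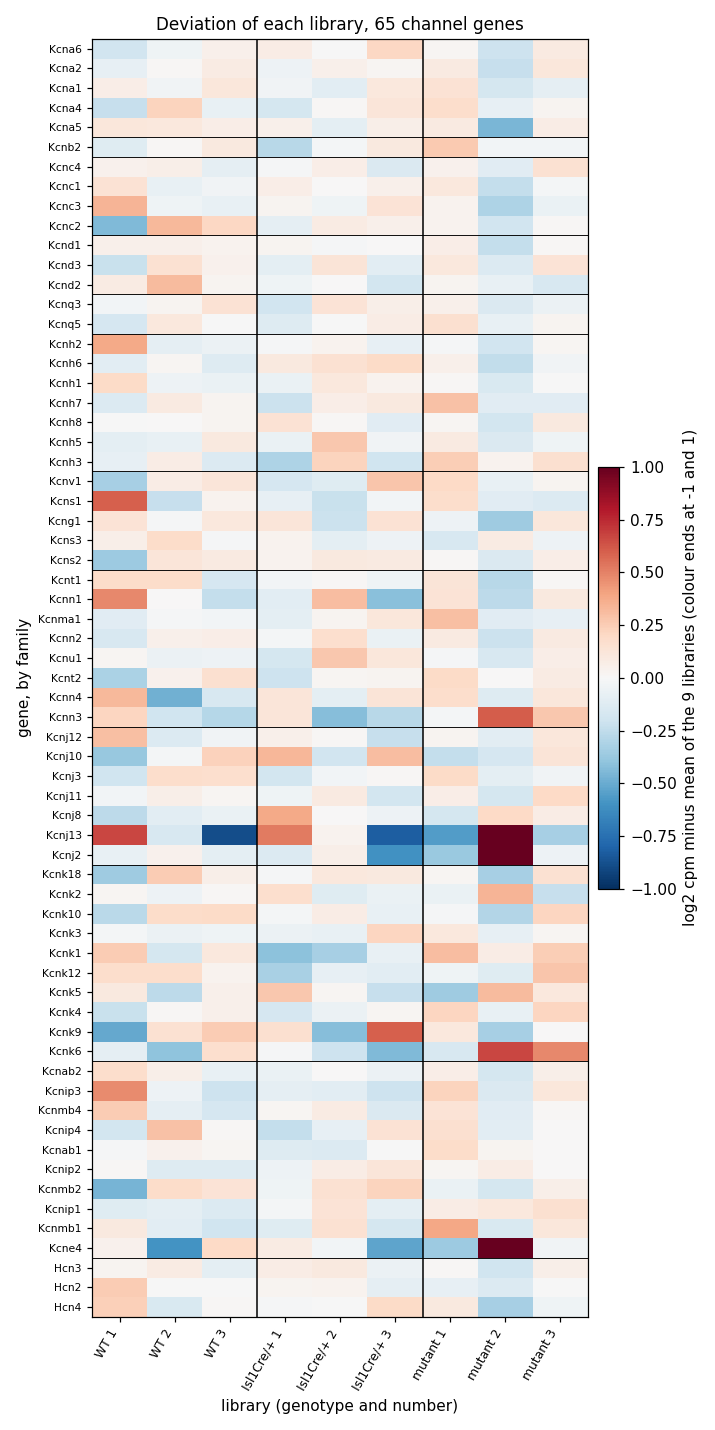
Log2 cpm of 65 tested channel genes in each library minus its mean over the 9 libraries, with genes in rows by family and libraries in columns by genotype; red is above and blue below the mean, and colours end at -1 and 1. The column of mutant library 2 is mostly pale blue with dark red at Kcnj13, Kcnj2 and Kcne4, and WT library 1 holds both colours.

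When both libraries were left out, 2 channel genes met the criterion between mutant and WT, Kcnip3 with a log2 fold change of 0.30 (unadjusted p = 0.0125) and Kcnn4 with 0.46 (unadjusted p = 0.0314), and neither had an adjusted p under 0.05 by edgeR. In that fit 182 of all 13200 tested genes (1.38%) were called, against 42 with all libraries. Relative to Isl1Cre/+, a comparison that holds no WT library and so loses only mutant library 2, Kcnk1 stayed called, joined by Kcnip3 and Kcnk4, which makes 3, where 1.64% of all tested genes were called. This comparison, added after the data were seen, rests on 2 libraries for each of the genotypes with a library left out.

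The proteins that assemble with these channels were examined as a list of 18 partner genes, of which 15 passed the filter and 0 were called in any comparison, near the shares of all tested genes (0.318%, 1.67% and 1.4%). They included Dpp6, which speeds Kv4 channels, at 396.8 to 522.4 cpm over the 9 libraries, Pex5l, a partner of HCN channels, at 30.1 to 39.4, and Cntnap2 and Cntn2, which hold Kv1 channels beside the nodes. The median log2 fold change of the tested partners was -0.06 relative to WT and -0.07 relative to Isl1Cre/+. Abcc9, a partner of Kir6 channels, had the value farthest from 0 relative to Isl1Cre/+, -0.32 (unadjusted p = 0.0897).

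The promoters of 69 of the 96 members, from 250 bases before to 50 bases after the start of the gene, were matched by symbol in RefSeq on GRCm38.p6, 48 of them for tested members. The core motif of MEIS factors, TGACAG on either strand, was found in 16 of these 69 (23.2%), against 5212 of all 27025 promoters (19.3%). The longer HOX-MEIS-PBX core, TGATTGAC on either strand, was found in 0 of the 69 and in 0.781% of all promoters. The TATAAA motif was found in 4.35% of the members' promoters and 14.2% of all promoters, and the median GC content was 59.7% and 52.7%. The promoter of Kcnk1 was among those matched and held no TGACAG.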

How the data were processed

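DRGs of E18.5 mouse embryos were measured by RNA sequencing in 9 libraries, 3 per genotype, grouped by their labels. Per the labels and methods, the authors selected poly(A) RNA, aligned reads to mm10 (GRCm38) with STAR 2.7.10, removed duplicates by molecular identifier and deposited raw counts of reads per gene from HTSeq 0.6. The annotation release and strand option are not given in the sources used here. The deposited log2 fold changes and mean log2 expression, p-values (unadjusted and adjusted) and scores (the moderated statistic and log odds) come from the authors' limma voom fits and were not used. The libraries held 23854607 to 29103444 counts.

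The 13200 genes that reached 100 counts in 1 or more of the 9 libraries were normalized by TMM and fitted in edgeR 4.0.16 (R 4.3.3), each pair of genotypes alone, by the quasi-likelihood test, with p-values adjusted over the whole table (Benjamini-Hochberg). A call needed an unadjusted p under 0.05 and a 1.2-fold difference or more. Intervals (95%) used the moderated degrees of freedom, 7.33 to 7.40. The tests were also run on simulated counts, whose outcome is not given here. Identifiers were matched to GENCODE M21, 55154 of 55247 and all 96 channel genes. The channel genes, lists and naming rule (called genes, 5 touch and 5 pain genes, the highest per kb in each family, genes whose mutant libraries lie outside all controls, and 2 genes on each side of the count limit) were chosen with earlier results of these data known. Alternatives were DESeq2's size factors, library size only, other count filters, DESeq2 1.42.0 (Wald test), limma voom 3.58.1, robust quasi-likelihood, all 3 genotypes in 1 fit, a block for the replicate number, leaving out each library, and other fold limits. Libraries of 1 genotype differed from each other by 12.6 to 129 times what counting error gives (chi-square divided by its degrees of freedom), so no library was a duplicate of another of its genotype. Some genes and sequences are not reported here.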

Additional observations from a re-analysis of the deposited data

How the results depend on the processing

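Between mutant and WT, 0 channel genes were called under each alternative except 1 with no fold requirement (Kcnip1), 0 to 1 when a library was left out (Kcnc2 without WT library 1, Kcnk6 without mutant library 1, a gene that passed the count limit only through mutant library 2) and 2 without WT library 1 and mutant library 2. Between mutant and Isl1Cre/+ the count of 1 became 6 with no filter on low counts, 2 with no fold requirement, 0 at a fold of 1.5 and 1 to 5 when a library was left out (5 without mutant library 1, 4 without Isl1Cre/+ library 2, 3 without mutant library 2, which here is the same fit as without both libraries). Kcnk1 was called in each of these except at a fold of 1.5, with log2 fold changes from 0.41 to 0.58. Between Isl1Cre/+ and WT the count of 0 became 1 with at least 100 counts in every library (Kcnk12), 1 with all 3 genotypes in 1 fit (Kcnk1), 1 with no fold requirement (Kcnh6) and 0 to 3 when a library was left out (3 without WT library 2, 1 without Isl1Cre/+ library 3). When a library was left out, the calls over all genes ran from 40 to 132, from 167 to 407 and from 102 to 340. Between mutant and Isl1Cre/+, 3.03% of all genes were called with no filter on low counts, and 1.64% without mutant library 2. Shares for the other fits are not given, so the channel counts are not read as a result about channel genes. The cause of these changes was not tested. The median log2 fold change of the channel genes ran from -0.0439 to 0.0714 relative to WT and from -0.0347 to 0.0803 relative to Isl1Cre/+ when a library was left out, both highest without mutant library 2.

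Over all genes, the calls (42, 221 and 185) became 408, 1028 and 845 with no filter on low counts and 7, 138 and 105 at a fold of 1.5, and reached 132, 407 and 340 when a library was left out. Of 1194 recomputed values of 25 named genes, 1185 kept their side of the criterion, 9 newly passed it and 0 reversed a called direction. Over all 96 channel genes, 15 were newly called in a comparison under 1 or more alternatives that kept the 1.2-fold limit. The matching count over all genes is not given, so this is not read as a result about channel genes. With the replicate number as a block, 0, 1 and 0 channel genes were called in the 3 comparisons. Deviations from the genotype means correlated between -0.605 and 0.424 for libraries of the same number. With 3 libraries per genotype, these values cannot settle whether the numbers pair the libraries.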
